A study of Mus musculus with 4 samples.

Results

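The complement genes C1qa, C1qb, C1qc, C3, C4b, C3ar1, C5ar1, Cfb and Cfp were followed across the cell classes of the mouse brain after ischemic stroke. They were chosen by symbol, and all 9 of them had a row among the 31253 genes counted. The 4 single-cell libraries were made from the injured hemisphere 3 days after tMCAO, an ischemic stroke made by closing the middle cerebral artery and then letting blood flow again. Of these, 2 libraries were labelled Ms4a3 cKO, from mice that the labels give as Htr2b ERCre; Ms4a3-Cre, and 2 were labelled Flox control, from Htr2b flox/flox littermates. Htr2b encodes a serotonin receptor. Ms4a3 is a gene of the progenitors that give rise to granulocytes and monocytes, and the labels describe the recombination as specific to myeloid cells. Mice were adults, male and/or female, given tamoxifen and then a 3-day washout before surgery, and the labels give the strain as C57B6. Which of the Cre alleles acted cannot be read from the labels, nor whether each library is another animal. The p-values then reflect the spread among these libraries alone, which can be technical. Tissue was loaded on the BD Rhapsody platform, which marks mRNA by cell and by molecule, so that each UMI counts 1 captured molecule, with no enrichment for any cell type.

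Complement is a set of plasma and locally made proteins that tag surfaces for uptake. In the classical pathway the C1q complex, built from the chains encoded by C1qa, C1qb and C1qc, binds a target and leads through C4 to cleavage of C3, the central component. Factor B (Cfb) and properdin (Cfp) drive and stabilise the alternative pathway, which also cleaves C3. The fragments C3a and C5a attract and activate leukocytes through their receptors C3ar1 and C5ar1. In the brain microglia are the main source of C1q, and complement takes part in the removal of synapses and of damaged tissue.

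The libraries held 77580518 and 84397197 UMIs in Ms4a3 cKO 1 and 2, against 105566650 and 105545311 in Flox control 1 and 2. After filtering, 59496 cells remained, with medians of 3764 and 4004 UMIs in the cKO libraries and 6602 and 5522 in the Flox libraries, and 15 barcode sequences recurred between libraries. Cells fell into 33 clusters, named from marker genes, and 11 classes had at least 50 cells in every library and were compared. Within a class, libraries were spread differently over clusters, and Flox control 1 stood apart: 2898 of its 3955 monocyte-macrophages lay in cluster 5, which held 13 and 32 cells of the cKO libraries and 271 of Flox control 2. Htr2b, the targeted gene, stood in monocyte-macrophages at 10.8 and 26.8 CPM in the cKO libraries, against 80.7 and 128 in the Flox libraries, and in microglia at 100.1 and 86.0 against 46.3 and 109. CPM are UMIs of a gene per 1000000 UMIs of a class in a library. Levels are given without further scaling, whereas fold changes use TMM scaling, which moved log2 fold changes by -0.14 in microglia and -0.17 in monocyte-macrophages relative to plain CPM.

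The 3 C1q chain genes lie side by side on the minus strand of chromosome 4 (GRCm38, the build that mm10 names), in the order C1qb, C1qc, C1qa, within 18675 bases from 136880129 to 136898803 that hold no other annotated gene. C1qb (ENSMUSG00000036905) spans 136880129 to 136886187, C1qc (ENSMUSG00000036896) 136889804 to 136893065 and C1qa (ENSMUSG00000036887) 136895917 to 136898803, each with 3 exons. Promoter sequence from RefSeq (GRCm38.p6) was at hand for 6 of the 9 genes. The stretches upstream of C1qb and C1qc are shown because these neighbours shared a cell pattern, and that of C3 because its pattern differed from theirs. Each is printed 5′ to 3′ on the minus strand and ends before the annotated gene.
C1qb, chr4:136886201-136886450: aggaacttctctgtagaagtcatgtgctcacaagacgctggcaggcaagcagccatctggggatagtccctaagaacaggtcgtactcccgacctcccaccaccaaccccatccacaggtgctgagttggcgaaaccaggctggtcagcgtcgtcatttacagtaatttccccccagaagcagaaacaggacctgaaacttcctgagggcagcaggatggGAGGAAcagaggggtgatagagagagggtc
C1qc, chr4:136893066-136893164: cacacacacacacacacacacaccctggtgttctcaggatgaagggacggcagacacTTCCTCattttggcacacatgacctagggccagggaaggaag
C3, chr17:57228137-57228386: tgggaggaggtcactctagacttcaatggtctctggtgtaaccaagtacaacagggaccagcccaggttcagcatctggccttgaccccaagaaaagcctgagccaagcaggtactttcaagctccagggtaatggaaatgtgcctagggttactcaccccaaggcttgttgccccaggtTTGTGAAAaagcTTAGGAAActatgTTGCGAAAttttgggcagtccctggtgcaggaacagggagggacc
In C1qb and C1qc the capitals mark the letters GAGGAA or, on the other strand, TTCCTC, the core bound by PU.1, a transcription factor of myeloid cells. Each held it 1 time, and none of C3, C3ar1, C5ar1 and Cfp held it, in the 250 bases before the RefSeq start; 23.3% of 32851 promoters did. For C1qc, C5ar1 and C3ar1 the annotated gene begins farther upstream, so that 99, 48 and 246 bases of the window lie before it and the rest lies within it. In C3 the capitals mark TTNNGNAA or TTNCNNAA, a C/EBP-type motif, where the 3 matches do not overlap. C1qc and C5ar1 held 1 match each, the other 3 genes none, and 36.8% of promoters at least 1; the match of C1qc lies outside the bases printed above. The interferon-stimulated response element was searched on both strands too, and was in 0 of the 6 windows and in 2.98% of promoters. These matches describe the letters only.

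C1q chains were most abundant in microglia, with border macrophages close behind. C1qc stood at 3829 and 4022 CPM in the microglia of Ms4a3 cKO 1 and 2, against 3077 and 3257 in Flox control 1 and 2. In border macrophages, which line the meninges and vessels, it stood at 3117 and 3264 against 2103 and 2895. Monocyte-macrophages had 1633 and 2074 against 1905 and 1686. The library ranges of microglia and border macrophages overlapped for all 3 chains, while those of monocyte-macrophages lay below border macrophages for C1qa and C1qc and overlapped them for C1qb. C1qa averaged 324 ± 44.8 CPM in microglia, 264 ± 65.4 in border macrophages and 155 ± 8.94 in monocyte-macrophages (SD, n = 4 libraries). All 3 chains were detected together in 70.1 and 70.6% of microglia of the cKO libraries and 74.9 and 72.5% of those of the Flox libraries, and no chain in 0.394 to 0.540%. In endothelial cells, which are not a known source, all 3 chains were found together in 0.462 to 1.16% of cells.

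**Figure D1:**
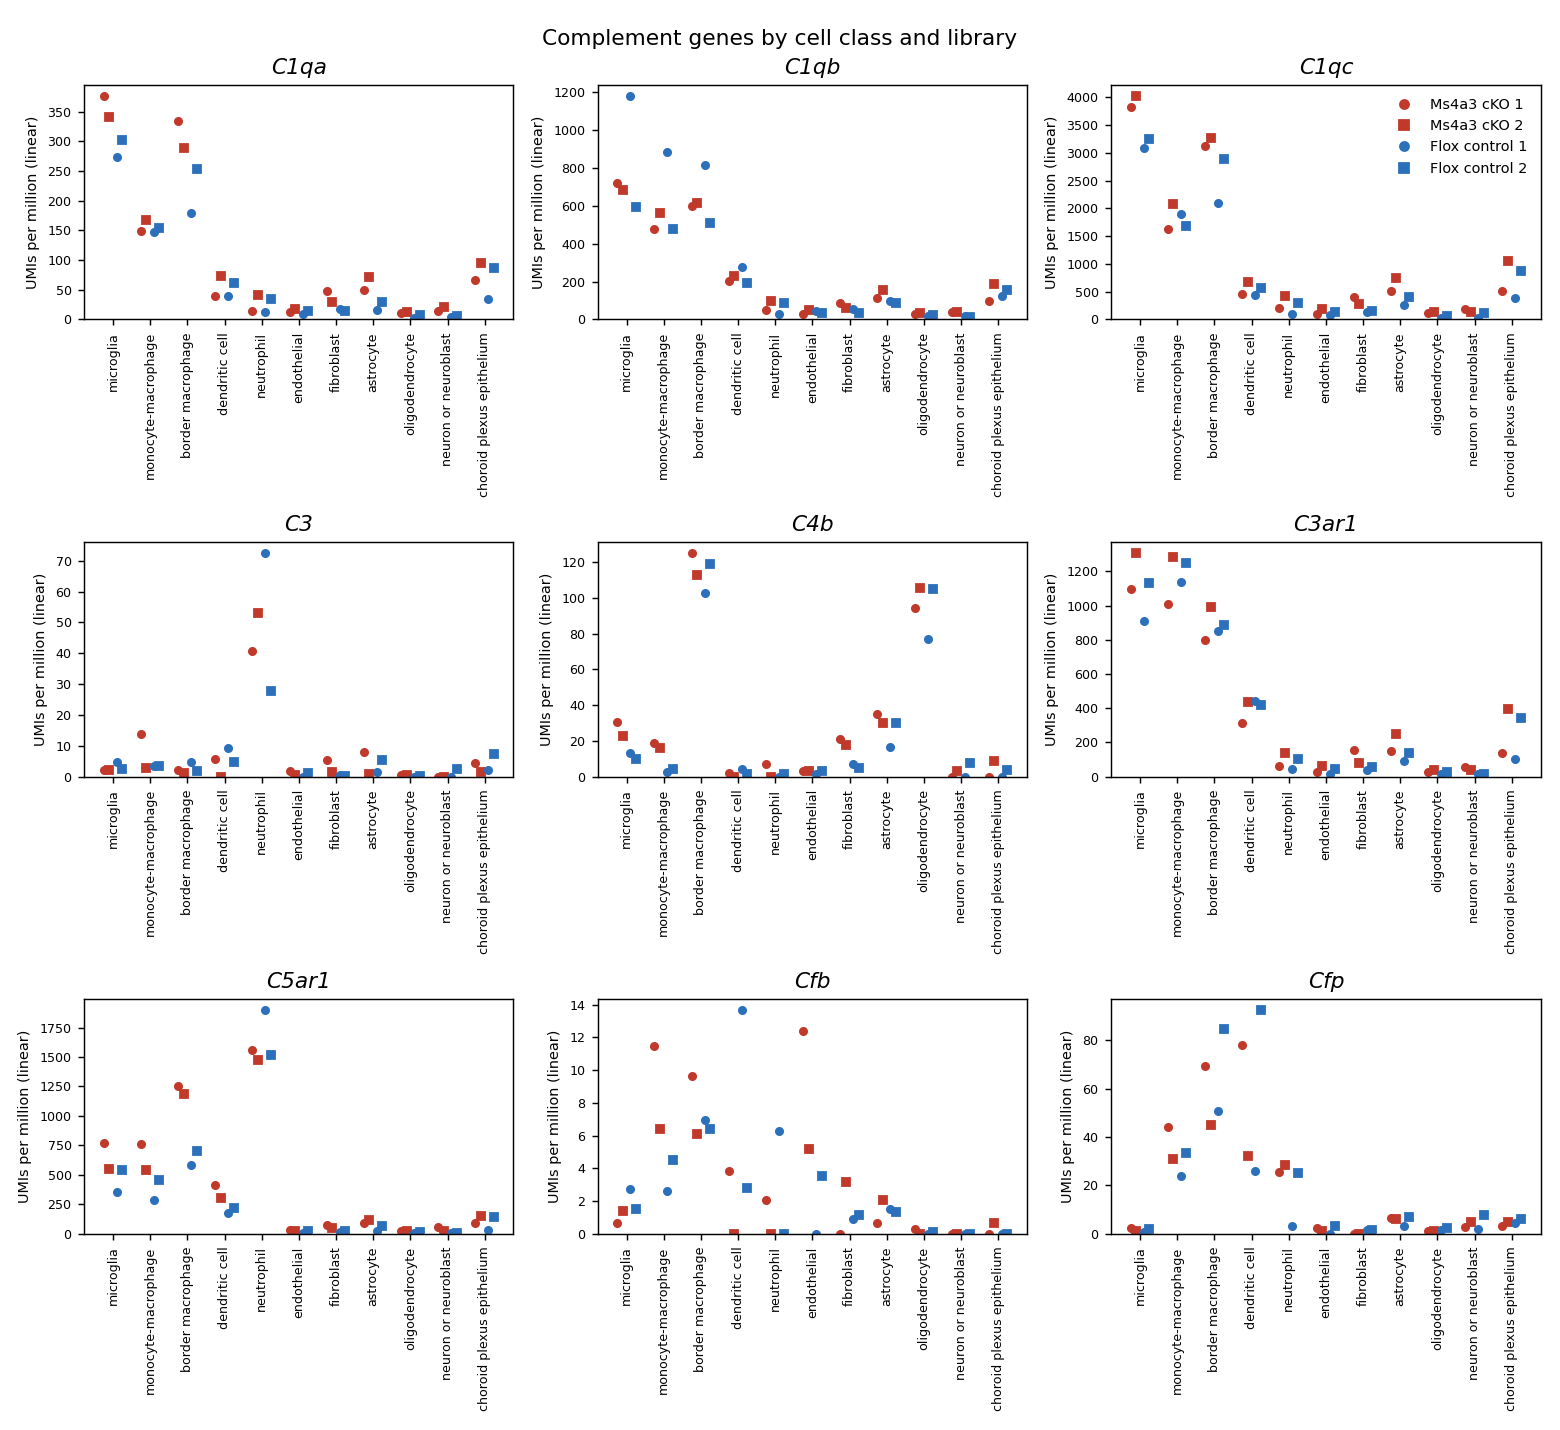
CPM (linear axes) of each complement gene in 11 cell classes, 1 point per library: Ms4a3 cKO in red, Flox control in blue. The 3 C1q chains and C3ar1 were high in microglia and macrophages, C3 and C5ar1 highest in neutrophils, and C4b highest in border macrophages and oligodendrocytes.

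The chains were not in equal proportion, and their balance differed by library and by class. C1qb gave 14.6 and 13.5% of the chain UMIs in microglia of Ms4a3 cKO 1 and 2, against 26.05 and 14.3% in those of Flox control 1 and 2. Flox control 1 thus stood apart from the other libraries. The same library was high in border macrophages, at 26.3% against 14.8, 14.8 and 13.9% in Ms4a3 cKO 1, Ms4a3 cKO 2 and Flox control 2. In monocyte-macrophages C1qb gave 21.1 and 20.0% in the cKO libraries, against 30.1 and 20.6% in the Flox libraries. Within each of the 4 libraries the C1qb share was higher in monocyte-macrophages than in microglia, with exact 95% binomial intervals that did not meet. In dendritic cells it was 28.8 and 23.7% in the cKO libraries, against 36.4 and 23.5% in the Flox libraries. The intervals cover counting error only.

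**Figure D2:**
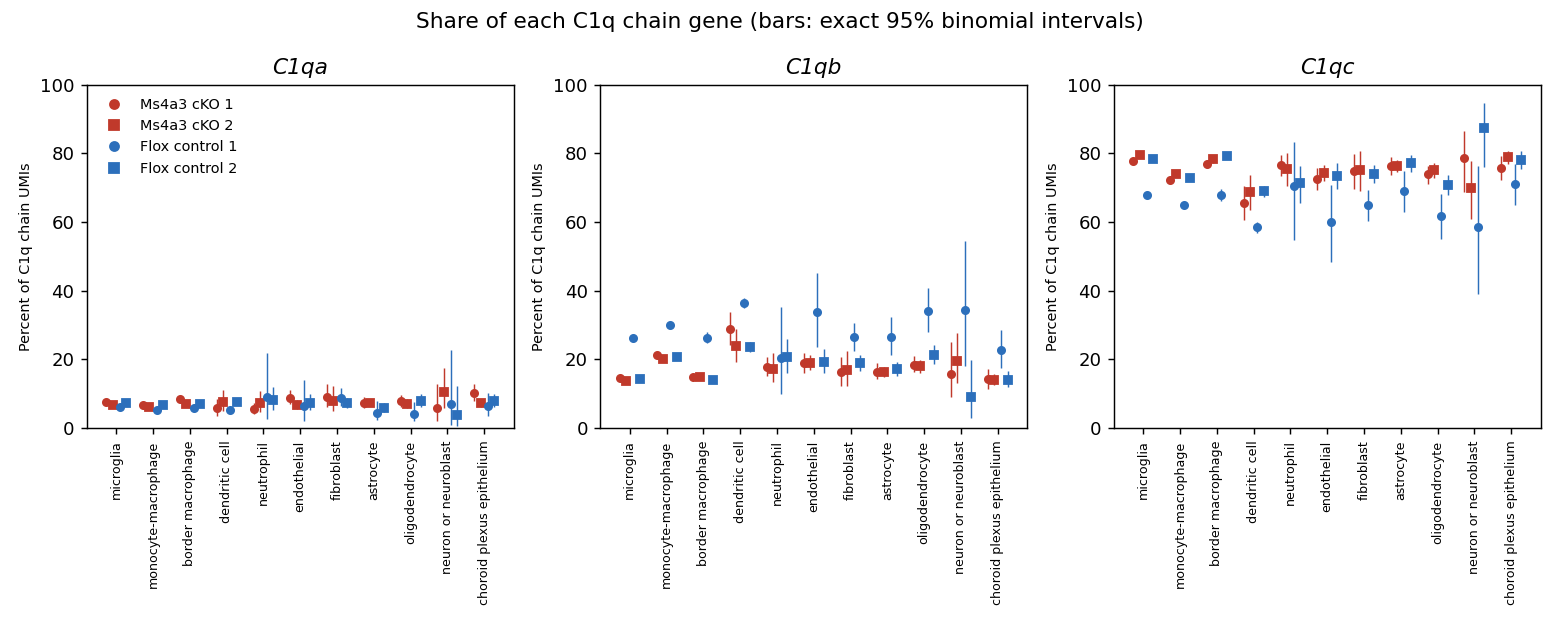
Percent of C1q chain UMIs from C1qa, C1qb and C1qc by cell class (linear axes), 1 point per library with its exact 95% binomial interval; Ms4a3 cKO in red, Flox control in blue. Flox control 1 lies above the other libraries for C1qb in microglia (26.05%) and in monocyte-macrophages (30.1%).

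Outside the phagocytes C1q stood below its microglial level. Choroid plexus epithelium, which makes cerebrospinal fluid, came next after monocyte-macrophages for C1qc, at 13.3 and 26.2% of its microglial level in the same library in Ms4a3 cKO 1 and 2, against 12.5 and 26.5% in Flox control 1 and 2. C3ar1 stood there at 12.3 and 30.2% against 11.2 and 30.5%. In oligodendrocytes C1qc stood at 2.91 and 3.40% of its microglial level of the same library in Ms4a3 cKO 1 and 2, against 1.07 and 2.14% in Flox control 1 and 2. C3ar1, which marks phagocytes, stood there at 2.60 and 2.95% against 1.38 and 2.37%. C1qb gave 18.4 and 17.9% of oligodendrocyte chain UMIs in the cKO libraries, against 34.1 and 21.3% in the Flox libraries, so that the high share of Flox control 1 recurred. Astrocytes held more than oligodendrocytes, with C1qc at 13.6 and 18.4% of the microglial level against 8.40 and 12.3%. Free RNA gives low UMIs of this kind to cells that do not express a gene, and its part was not tested. After thinning to 1000 UMIs per cell, a C1qc UMI was found in 12.2 and 19.4% of neutrophils of the cKO libraries, against 7.69 and 19.2% of those of the Flox libraries. In endothelial cells these shares were 9.89 and 12.6% against 1.43 and 12.5%, and in microglia 93.9 and 94.2% against 92.7 and 92.3%. Median depths were 1282 to 1966 UMIs in neutrophils, 2169 to 3218 in endothelial cells and 5043 to 6544 in microglia.

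Among monocyte-macrophages C1q and C3 were found in different clusters. Cluster 15 was low in C1qc, at 251 and 511 CPM in the cKO libraries against 201 and 255 in the Flox libraries. Cluster 2 had 2273 and 2349 against 1534 and 1724. C3 was the reverse: cluster 15 had 51.8 and 17.7 against 30.1 and 44.9, and cluster 2 had 1.74 and 1.33 against 5.99 and 2.34. Each cluster was scored by the mean scaled level of the markers of a list. Cluster 15 scored 1.755 for monocyte-macrophages and next 0.76 for neutrophils, the compared class highest in C3. The part of neutrophil RNA in its C3 was not tested. Cluster 15 held 778 of 2916 and 132 of 1554 monocyte-macrophages of the cKO libraries, against 135 of 3955 and 248 of 4434 of the Flox libraries. Ms4a3 cKO 1, where it was most frequent, also had the most monocyte-macrophages with no chain, 20.6%, against 6.18% in Ms4a3 cKO 2 and 5.39 and 5.80% in the Flox libraries. These clusters were formed without the complement genes, but a difference between clusters is a description and not a test.

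C3, the central component, was sparse in each of the 11 compared classes and highest among them in neutrophils. It lies on chromosome 17 at 57203970 to 57228136 (ENSMUSG00000024164, minus strand, 41 exons). Neutrophils had 40.6 and 53.1 CPM in Ms4a3 cKO 1 and 2, against 72.4 and 27.9 in Flox control 1 and 2, from 117 and 30 against 23 and 19 UMIs. Monocyte-macrophages came next with 13.6 and 2.90 against 3.51 and 3.40, a range that did not meet that of neutrophils. Microglia had 2.26 and 2.08 against 4.62 and 2.37. Only 0.165 to 0.563% of thinned microglia held a C3 UMI, and 2.89 to 5.77% of thinned neutrophils.

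C4b, the mouse C4 gene of the classical and lectin pathways, was highest in border macrophages and oligodendrocytes. It lies on chromosome 17 at 34728380 to 34743882 (ENSMUSG00000073418, minus strand, 41 exons). Its near-identical copy C4a had no row under that symbol, and reads shared with it make the C4b count uncertain. Border macrophages had 125 and 113 CPM in the cKO libraries, against 103 and 119 in the Flox libraries, and oligodendrocytes 94.2 and 105.7 against 77.3 and 104.8. The ranges of these classes overlapped, and astrocytes followed below both with 34.9 and 30.1 against 16.5 and 30.0. Within oligodendrocytes cluster 13 was low, with 17.02 and 38.5 against 12.9 and 5.90, while cluster 12 had 131 and 98.1 against 81.6 and 118. Between genotypes it differed by 0.03 on the log2 scale in oligodendrocytes (SE 0.21, n = 2 per genotype) with edgeR's quasi-likelihood test (adjusted p = 0.958). It was -1.21 without cluster 9, which held 845 and 1475 cKO cells and 1 and 16 Flox cells (adjusted p = 0.084). Of the clusters that then remained, the low cluster 13 held 911 and 345 cKO cells against 55 and 214 Flox cells. Cluster 12 held 63 and 94 against 447 and 1033. The part of this mix in the value of -1.21 was not tested.

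The genes of the alternative pathway were low. Cfb (ENSMUSG00000090231, chromosome 17 at 34856374 to 34862518, minus strand, 18 exons) overlaps the annotated genes Gm20547 and Mir6972 on its own strand, so that reads could be split. It stayed below 14 CPM in every class and library compared, and border macrophages led with 9.62 and 6.10 in the cKO libraries, against 6.94 and 6.37 in the Flox libraries. Its ranges in monocyte-macrophages, endothelial cells, dendritic cells and neutrophils overlapped these. Among monocyte-macrophages Cfb was highest in cluster 29, an interferon-response cluster, with 79.0 and 11.9 against 18.98 and 32.3, where Ms4a3 cKO 2 had 8 cells, leaving aside a value of cluster 8 in Flox control 1 from 10 cells. Cfp (ENSMUSG00000001128, chromosome X at 20925454 to 20931555, minus strand, 9 exons) stood in border macrophages at 69.4 and 45.1 CPM against 50.9 and 84.6. Dendritic cells had 78.1 and 32.2 against 26.1 and 92.3, and monocyte-macrophages 44.3 and 30.9 against 23.8 and 33.3. Microglia had 2.55 and 1.26 against 0.612 and 1.85, so that Cfp was nearly absent from the class that led for C1q.

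The 2 receptors had different patterns. C3ar1 (ENSMUSG00000040552, chromosome 6 at 122847138 to 122856161, minus strand, 2 exons) stood in monocyte-macrophages at 1007 and 1282 CPM in the cKO libraries, against 1135 and 1246 in the Flox libraries. Microglia had 1098 and 1306 against 908 and 1131, and border macrophages 798 and 993 against 852 and 887, so that the 3 classes overlapped. Neutrophils had 62.2 and 140 against 44.1 and 103. C5ar1 (ENSMUSG00000049130, chromosome 7 at 16246743 to 16259540, minus strand, 2 exons) was highest in neutrophils, at 1557 and 1472 against 1896 and 1514, and its range there did not meet that of any other class. Among monocyte-macrophages it was highest in cluster 15, at 1207 and 913 against 584 and 815, beside the C3 noted above, leaving aside a value of cluster 8 in Flox control 1 from 10 cells.

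The genotypes were then compared within each class, first in microglia, the resident myeloid cells. There no complement gene passed edgeR's test. It called 0 of 9, against 0% of 14343 genes tested at an adjusted p under 0.05, and 1 of 9 (C4b) at an unadjusted p under 0.05, against 10.9% of all genes; DESeq2 called 0 of 9, against 1.93% of the 14140 genes it tested. Their median log2 fold change was 0.17, against -0.01 over all genes tested. In 4 of 9 genes (C1qa, C1qc, C4b and C5ar1) both cKO libraries lay above both Flox libraries, against 34.5% of all genes, and in 2 (C3 and Cfb) both lay below, against 15.5%.

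C4b had the smallest p in microglia. Its level was 30.5 and 22.9 CPM in Ms4a3 cKO 1 and 2, against 13.01 and 10.1 in Flox control 1 and 2, from 332 to 982 UMIs. Both cKO libraries lay above both Flox libraries, and the fold change was 1.05 on the log2 scale (SE 0.27, n = 2 per genotype) with an adjusted p of 0.444 in edgeR and 0.0635 in DESeq2. Of the 5 microglial clusters with at least 50 cells in every library, 4 showed the same order. C1qa and C1qc showed that order in 5 of 5, so it does not set C4b apart. These clusters share the same libraries and are not independent repeats, and the share over all genes was not computed. Without Flox control 2, edgeR called 4 of the 9 genes, against 29.6% of all genes: C4b at 0.77 (adjusted p = 0.0382), C1qb at -1.02 (0.00368), C3 at -1.36 (0.0107) and Cfb at -1.63 (0.0376). In edgeR C1qc differed by 0.17 on that scale (SE 0.16, adjusted p = 0.659) and C1qa by 0.17 (SE 0.13, adjusted p = 0.596). C1qb, at 719 and 684 CPM in the cKO libraries against 1180 and 594 in the Flox libraries, had -0.52 (SE 0.40, adjusted p = 0.600), and 0.20 without Flox control 1. C5ar1 had 768 and 549 against 358 and 543, so that Ms4a3 cKO 2 and Flox control 2 all but met. The microglial markers summed to 16212 and 17195 CPM in these cells in the cKO libraries, against 29568 and 20093 in the Flox libraries, with 10 of 12 markers lower in both cKO libraries and none higher; their part in the values above was not tested.

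**Figure D3:**
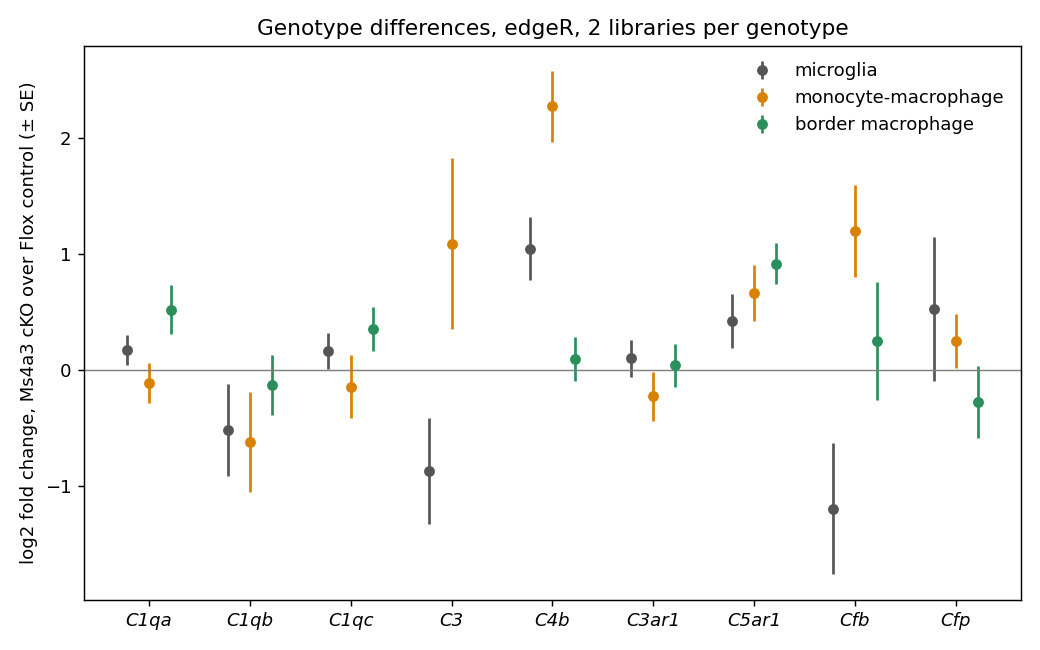
Log2 fold change (Ms4a3 cKO over Flox control, edgeR) of the complement genes in 3 phagocyte classes; points are estimates and bars ± 1 SE, from 2 libraries per genotype. C4b in monocyte-macrophages lies farthest from 0 (2.28), and no point passed the test.

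In monocyte-macrophages, the main infiltrating class, C4b differed most and again missed edgeR's threshold. Its level was 19.1 and 15.9 CPM in Ms4a3 cKO 1 and 2, against 2.29 and 4.33 in Flox control 1 and 2, from 387 and 197 against 99 and 153 UMIs. The groups did not overlap. On the log2 scale the difference was 2.28 (SE 0.31, n = 2 per genotype), with an adjusted p of 0.336 in edgeR. DESeq2 gave 2.26 with an adjusted p of 5.54e-07, edgeR without a filter on low counts 0.00292, where 1 of 9 was called against 1.72% of all genes. edgeR without Flox control 2 gave 0.0107 and called C1qb too (-1.11, adjusted p = 0.0155), 2 of 9 against 28.6% of all genes. In cluster 2 alone C4b had 12.2 and 16.4 against 7.32 and 3.39 CPM, and in cluster 15 alone 19.4 and 20.9 against 3.35 and 7.67. The order thus held in both clusters with at least 50 cells in every library, which share the same libraries and are not independent repeats. Border macrophage markers, the class where C4b led, summed to 4378 and 3682 CPM in monocyte-macrophages of the cKO libraries, against 2897 and 2422 in the Flox libraries, with 6 of 10 markers higher in both cKO libraries and 2 lower. Oligodendrocyte markers summed to 137 and 188 against 119 and 232. Border macrophage markers were not confined to that class. Pf4 and F13a1 were among the 10 leading genes of cluster 8, named a monocyte-macrophage cluster. This cluster scored higher for the border macrophage list (1.55) than for the monocyte-macrophage list (1.28), and so did clusters 5 and 25. Cluster 8 held 1589 and 825 cells of the cKO libraries, against 10 and 263 of the Flox libraries. The sum therefore does not tell border macrophages from the mix of monocyte-macrophage clusters. The part of these markers in the C4b difference was not tested.

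Over the 9 genes edgeR called 0 in monocyte-macrophages, against 0% of 13195 genes, and 3 of 9 had an unadjusted p under 0.05 (C4b, Cfb and C5ar1), against 11.8% of all genes. These same 3 had both cKO libraries above both Flox libraries, against 30.3% of all genes, and none had both below, against 17.9%. DESeq2 called 1 of 9, C4b, against 3.46% of the 12452 genes it tested. The median log2 fold change of the 9 was 0.25, against -0.02 over all genes tested. Cfb stood at 11.5 and 6.37 CPM in the cKO libraries, against 2.61 and 4.50 in the Flox libraries (log2 fold change 1.20, SE 0.40, adjusted p = 0.405 in edgeR). C5ar1 stood at 759 and 538 against 290 and 453 (0.66, SE 0.24, adjusted p = 0.414 in edgeR). Of the 2 clusters with at least 50 cells in every library, 1 showed this order for Cfb and 1 for C5ar1. The part of the mix of clusters in either difference was not tested. C3ar1 had -0.23 (SE 0.21, adjusted p = 0.646 in edgeR). C1qa and C1qc had -0.11 and -0.14 under TMM, while in plain CPM their cKO means, 158 and 1854, lay above the Flox means, 151 and 1796. C3 had 1.09 (SE 0.74, adjusted p = 0.543 in edgeR) and -0.43 without Ms4a3 cKO 1, the library in which cluster 15 was frequent. Neutrophil markers summed there to 1248 CPM, against 300 in Ms4a3 cKO 2 and 338 and 274 in the Flox libraries, and their part was not tested.

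**Figure D4:**
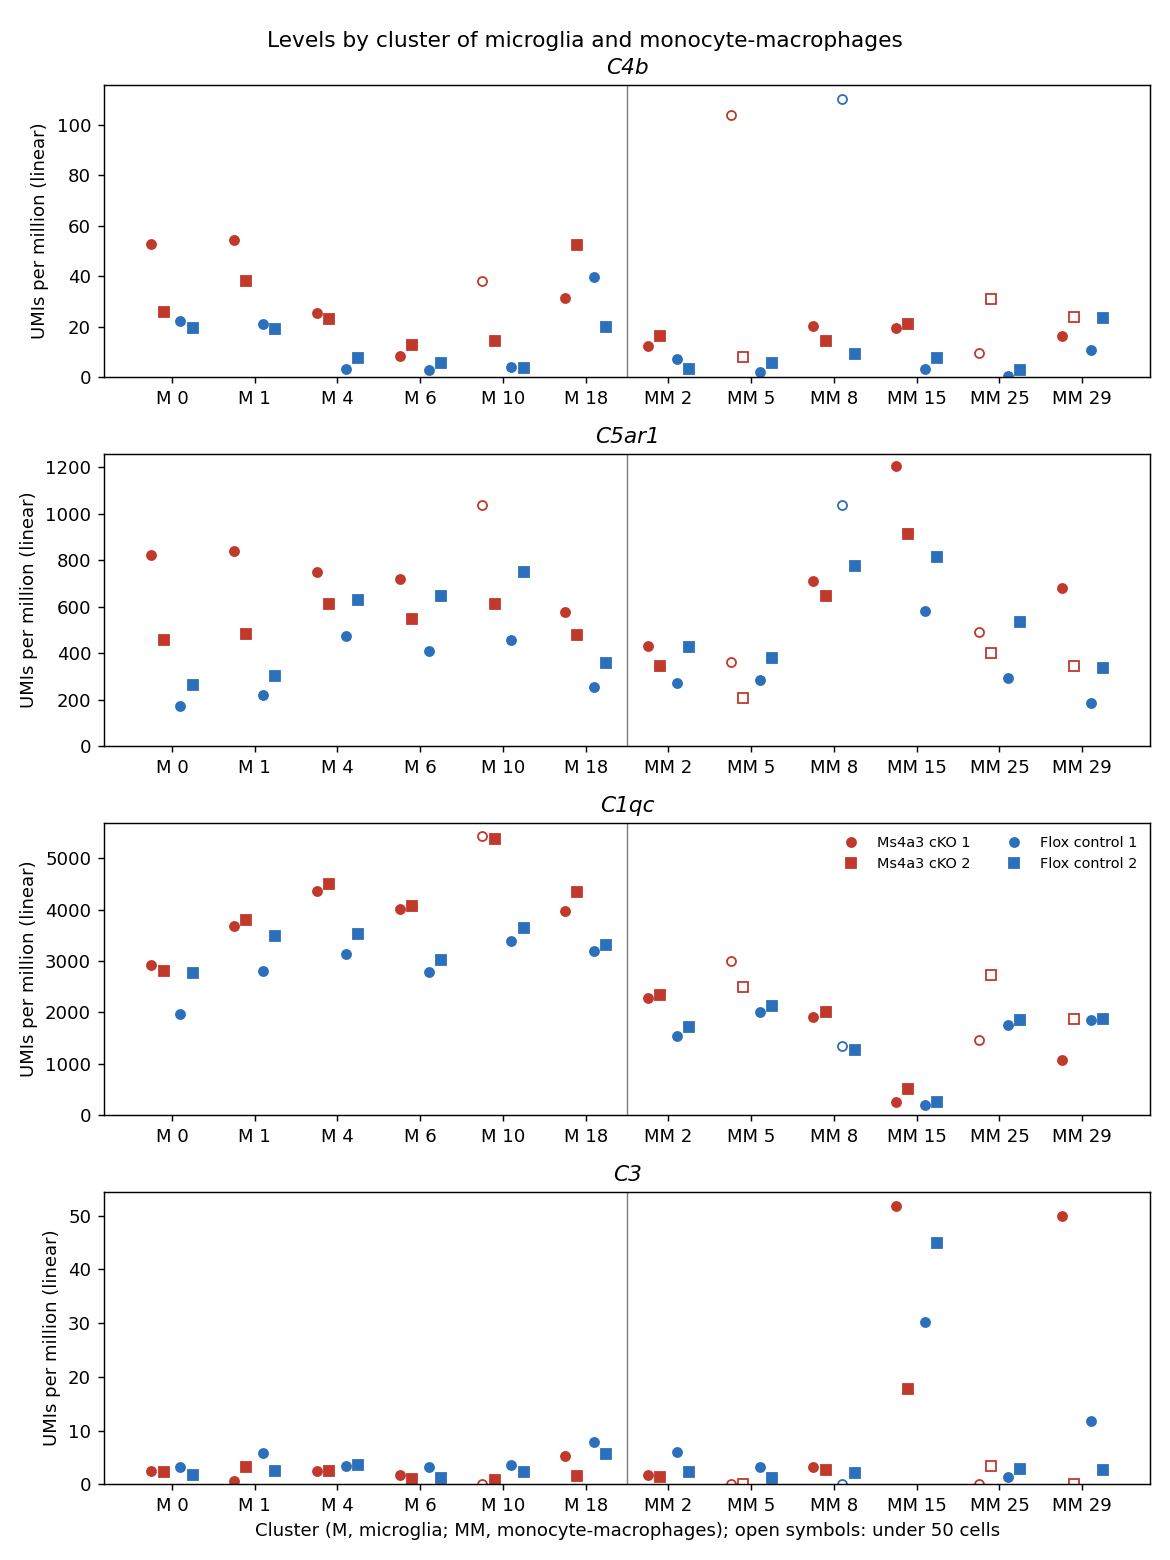
CPM (linear axes) of C4b, C5ar1, C1qc and C3 in each cluster of microglia (M) and monocyte-macrophages (MM), 1 point per library; Ms4a3 cKO in red, Flox control in blue, open symbols for under 50 cells. C1qc is lowest and C3 among the highest in cluster 15, and C4b is higher in both cKO libraries in clusters 2 and 15.

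Whether the genotype difference itself differed between monocyte-macrophages and microglia was tested as an interaction in 1 fit with library as a block. edgeR called 0 of 9 genes, against 0% of 14834 genes tested. The difference of the log2 fold changes was 1.26 for C4b (SE 0.39, adjusted p = 0.435), 2.34 for Cfb (SE 0.79, adjusted p = 0.456) and 1.61 for C3 (SE 0.73, adjusted p = 0.540). Unadjusted p were under 0.05 for 2 of 9, C4b and Cfb, against 9.9% of all genes. Without Flox control 2 the interaction was called for 3 of 9, C4b (1.81), Cfb (3.01) and C3ar1 (-0.49), against 7.7% of all genes.

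In border macrophages C5ar1 was higher in both cKO libraries, and again missed edgeR's threshold. It stood at 1252 and 1184 CPM in Ms4a3 cKO 1 and 2, against 580 and 705 in Flox control 1 and 2. The groups did not overlap. The difference was 0.92 on the log2 scale (SE 0.18, n = 2 per genotype) with an adjusted p of 0.105 in edgeR, where 0 of 8 complement genes tested were called, against 0.306% of 8821 genes. At an unadjusted p under 0.05 there were 2 of 8, C1qa and C5ar1, against 10.7% of all genes. In 3 of 8, C1qa, C1qc and C5ar1, both cKO libraries lay above both Flox libraries, against 20.9% of all genes, and in 0 both lay below, against 21.8%. DESeq2 gave C5ar1 an adjusted p of 0.00929 and called 1.39% of the genes it tested. Leaving out each library in turn moved edgeR's adjusted p between 4.74e-05 and 0.936, and C5ar1 was called without Flox control 1 (0.00117, against 5.03% of all genes called) and without Flox control 2 (4.74e-05, against 13.3%). Dendritic cells had 414 and 305 against 179 and 222 (0.79, SE 0.25, adjusted p = 0.495 in edgeR, and 0.00269 without Flox control 2, where 18.1% of all genes were called). Neutrophil markers summed in these dendritic cells to 301 and 208 CPM in the cKO libraries, against 53.4 and 69.7 in the Flox libraries, with 7 of 12 markers higher in both cKO libraries and 1 lower. Dendritic cell markers summed to 755 and 1167 against 1676 and 1451, with 0 of 12 higher and 7 lower, and the part of both in the C5ar1 values was not tested. In the border macrophages border macrophage markers summed to 21523 and 20347 CPM in the cKO libraries, against 15190 and 13036 in the Flox libraries, and their part was not tested.

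In the other 8 classes edgeR called 0 complement genes, against 0% of genes in 6 of them, 0.0243% in choroid plexus epithelium and 0.304% in oligodendrocytes. At an unadjusted p under 0.05 there were 5 of 6 genes in fibroblasts, against 11.3% of all genes, 3 of 7 in astrocytes, against 15.8%, and 2 of 7 in oligodendrocytes, against 15.3%. There was 1 of 7 in dendritic cells, against 7.75%, and 1 of 3 in neurons or neuroblasts, against 6.01%. None was found in endothelial cells, against 7.04%, in neutrophils, against 6.95%, or in choroid plexus epithelium, against 5.56%. In fibroblasts all 6 genes tested had both cKO libraries above both Flox libraries, against 28% of all genes. The same order was seen in 6 of 7 in astrocytes, against 27.1%, 5 of 7 in oligodendrocytes, against 30.5%, 2 of 7 in endothelial cells, against 22.3%, 3 of 3 in neurons or neuroblasts, against 21.5%, 1 of 7 in dendritic cells, against 21.6%, 1 of 7 in neutrophils, against 18.7%, and 0 of 5 in choroid plexus epithelium, against 15.2%. In oligodendrocytes 1 of 7, Cfp, had both cKO libraries below both Flox libraries, against 20.5% of all genes. The microglial markers summed in astrocytes to 3668 and 4654 CPM in the cKO libraries, against 2484 and 3176 in the Flox libraries, with 3 of 12 markers higher in both cKO libraries and 1 lower. In oligodendrocytes they summed to 960 and 1284 against 624 and 808, with 7 of 12 higher and 0 lower. In fibroblasts they summed to 3797 and 3823 against 6296 and 6168, with 3 higher and 2 lower. That is 23.4 and 22.2% of their microglial level in the same library, against 21.3 and 30.7%. C1qc stood there at 10.5 and 6.78% against 4.30 and 4.38%. The fibroblast sum thus did not follow C1qc. In endothelial cells the sum stood at 25.9 and 24.4% of the microglial level in the cKO libraries, against 12.1 and 40.8% in the Flox libraries. C1qc stood there at 2.71 and 4.73% against 2.67 and 4.18%. What the sum measures outside microglia, astrocytes included, was not tested. The oligodendrocyte markers themselves summed in oligodendrocytes to 35544 and 50324 against 82071 and 71819, with 0 of 10 higher and 9 lower. The part of these markers in the order of the groups was not tested. C4b in fibroblasts stood at 21.2 and 17.5 CPM in the cKO libraries, against 7.27 and 4.52 in the Flox libraries (log2 fold change 1.63, SE 0.53, adjusted p = 0.373 in edgeR). DESeq2 called no complement gene in astrocytes, against 1.51% of genes, fibroblasts, against 2.07%, endothelial cells, against 0.638%, dendritic cells, against 0.608%, neutrophils, against 0.774%, or choroid plexus epithelium, against 0.26%. It called C1qc in oligodendrocytes, against 4.69%, at 111 and 137 against 32.9 and 69.8 CPM (1.18, adjusted p = 0.0316, against 0.196 in edgeR with all libraries and 9.17e-05 without Flox control 2, where 18.2% of all genes were called); its share of the microglial level of the same library is given above. In neutrophils C5ar1 had -0.25 (SE 0.44, adjusted p = 0.985).

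Of 48 other complement genes with a row, 21 were tested in microglia and 21 in monocyte-macrophages, and edgeR called 0 in either direction in both, against 0% of all genes. At an unadjusted p under 0.05 there were 6 in microglia, against 10.9% of all genes, and 4 in monocyte-macrophages, against 11.8%. DESeq2, which gave a p to 43 of these genes in microglia, called 1 higher and 2 lower there, against 1.93% of all genes. In monocyte-macrophages it gave a p to 42 and called 2 higher and 1 lower, against 3.46%. The receptor subunit Itgax, which pairs with Itgb2 to bind cleaved C3, had the smallest p of the list in monocyte-macrophages. Its level there was 16.6 and 18.2 CPM in the cKO libraries, against 164 and 84.6 in the Flox libraries (-3.07, SE 0.47, adjusted p = 0.336 in edgeR). In microglia Itgax stood at 16.3 and 18.1 against 71.1 and 29.1. The groups did not overlap in either class. Fcna, a ficolin of the lectin pathway, stood in monocyte-macrophages at 5.52 and 4.92 against 0.785 and 1.67 (1.97, SE 0.40, adjusted p = 0.365 in edgeR). Border macrophages were highest for Fcna, with means of 276 CPM in the cKO libraries and 93.9 in the Flox libraries (1.52, SE 0.33, adjusted p = 0.137 in edgeR). In microglia the smallest p were those of Cd46, a complement regulator, at 8.69 and 7.66 against 2.30 and 3.37, and of Masp1, a lectin pathway protease, at 14.2 and 19.7 against 47.3 and 32.8. C5ar2, the other C5a receptor, had 63.0 and 54.8 against 26.998 and 39.03. Vsig4, a receptor for cleaved C3, was found mainly in border macrophages, at 616 and 523 against 144 and 277.

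Among the regulators Clu averaged 488 CPM in astrocytes and Cd59a, which blocks the terminal pore, 352 CPM in endothelial cells over the 4 libraries. Cfd, which cleaves factor B, had no UMI in any class compared.

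Genes other than the 9 with a pattern most like each member were sought by Pearson correlation of log2(CPM + 1) over 44 sums (11 classes in 4 libraries); 9122 genes were compared; sums share libraries and depth, and the values are a description. Among them C1qa was most like Grn (0.954), Hpgds (0.949) and Lgmn (0.948), and C1qc like the same genes in the order Hpgds (0.971), Grn (0.966) and Lgmn (0.959). C1qb was most like Pla2g15 (0.965), Trem2 (0.961) and Adgre1 (0.960). C3ar1 was most like Cd68 (0.976), Abcc3 (0.969) and Grn (0.968), and C5ar1 like Igsf6 (0.971), Gcnt1 (0.966) and Plek (0.963). C3 was most like Slpi (0.847), Slfn4 (0.843) and Pygl (0.835), Cfp like Nxpe5 (0.891), Tlr8 (0.887) and Nlrc4 (0.873), and C4b like Twf1 (0.761), Il18 (0.747) and 2610507B11Rik (0.744). Among the members C1qa and C1qc (0.987) were the most alike, above any gene named for either, and C1qb stood at 0.973 with C3ar1, above the genes named for C1qb, while C1qa and C3 stood at 0.211. Cfb reached 50 CPM in no sum and was left out.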

How the data were processed

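Per the submitters' processing notes, fastp 0.24.0, STARsolo and the build mm10 were used; annotation, strand and barcode settings are not given here by any source. The deposited values, raw counts of UMIs by gene and barcode, were not normalized, and no barcode had fewer than 500 UMIs. Groups were taken from the sample titles.

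Of 63181 barcodes, 60942 passed minimums of 500 UMIs and 250 genes and a limit of 20% mitochondrial UMIs. With 6% doublets expected per library, 1446 predicted ones were taken out. Cells were clustered with scanpy 1.11.5 and leidenalg 0.10.2 (2000 variable genes less the complement genes among them, 30 components, 15 neighbours, resolution 1, no batch integration), and clusters were named by hand from markers; cluster 7 stayed unnamed for its low UMI counts. Names are rebuilt and are not the authors' own. Marker lists were also scored in each cluster, as the mean scaled level of their markers. Clusters 5, 8 and 25, named monocyte-macrophages, scored 0.64, 1.55 and 0.63 for border macrophages, above 0.48, 1.28 and 0.58 for monocyte-macrophages. Cluster 6, named microglia, scored highest for erythroid cells (1.38, against 1.12 for microglia). Cluster 11, named dendritic cells, scored 3.29 for B cells and 3.22 for dendritic cells.

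UMIs were summed per library and class. The genotype test was edgeR 4.0.16 in R 4.3.3 (quasi-likelihood, TMM, filterByExpr), with Benjamini-Hochberg adjustment over all genes tested and a threshold of 0.05; each class with at least 50 cells in every library was fitted alone. Log2 fold changes are Ms4a3 cKO over Flox control, and for edgeR the SE is the size of the fold change over the root of F. DESeq2 1.42.0 was the other tool. With 2 libraries per genotype no exact permutation test can pass the threshold, and none is given. Shares of cells were computed after thinning each cell to 1000 UMIs. The fits were tested on simulated data. Gene coordinates came from GENCODE for GRCm38 and promoters from RefSeq. The members, gene lists and markers were chosen with earlier results of these data known. Named were the 9 members throughout; of the pathway list, those that passed, the 5 with the smallest p in microglia or monocyte-macrophages and the most abundant of a role group in a class described; and the 3 most alike genes per member. Vsig4, Cd59a, Clu and Cfd fall outside that rule or were not checked against it, and were chosen after their values were seen. Not every gene that the rule names is reported here. Alternatives are in the closing section.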

Additional observations from a re-analysis of the deposited data

Results flagged for a closer look

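C1q chains and C3 also appeared in cells outside the compared classes. In cluster 7, left unnamed, C1qa averaged 354, C1qb 912 and C1qc 3662 CPM over the 4 libraries, above the 324, 794 and 3546 CPM of microglia. Its cells were shallow, with median UMI counts of 986 and 895 in Ms4a3 cKO 1 and 2, against 1430 and 666 in Flox control 1 and 2. C3 averaged 56.0 CPM in ependymal cells, above the 48.5 CPM of neutrophils, from 8 and 2 UMIs in the cKO libraries, against 9 and 9 in the Flox libraries. The groups hold 2 libraries each, too few to test for a single outlying sample. Flox control 1 stood apart in its C1qb share and in its spread over monocyte-macrophage clusters, as given above.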

How the results depend on the processing

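No complement gene was called in microglia under any alternative run with all 4 libraries, and leaving out each library gave 0 to 4 calls. In monocyte-macrophages DESeq2 and the absence of a filter on low counts gave 1 call each (3.46 and 1.72% of all genes were called), and leaving out each library gave 0 to 2. In the other 9 classes together DESeq2 gave 2 calls, no filter gave 9, and leaving out each library gave 0 to 14, where 1.32, 2.45 and, without Flox control 2, 8.16% of all gene tests in these classes were called; the interaction gave 0 to 3. The highest counts came without Flox control 2, where 2024 genes were called higher and 2447 lower in cKO microglia, and 1671 higher and 2102 lower in cKO monocyte-macrophages (29.6 and 28.6% of all genes); the cause was not tested. With a library left out, the lone one of its genotype is assumed to vary like the others. The highest class of each of the 9 genes was the same under the 4 alternatives for levels; by thinned share of cells Cfp was highest in dendritic cells. The higher C1qb share of monocyte-macrophages held in all 4 libraries.

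Leaving out each library reversed C1qb in microglia (-1.02 to 0.20) and monocyte-macrophages (-1.11 to 0.13), C3ar1 (-0.030 to 0.22) and Cfp (-0.058 to 1.34) in microglia, C1qa (-0.24 to 0.046), C1qc (-0.38 to 0.15), C3 (-0.43 to 1.81) and Cfp (-0.037 to 0.50) in monocyte-macrophages, and C4b in oligodendrocytes (-0.13 to 0.17). Cluster 0 alone reversed C3 (0.39), Cfb (0.27) and Cfp (-0.26) in microglia. In monocyte-macrophages cluster 2 alone reversed C1qa (0.25), C1qc (0.47) and Cfp (-0.35), cluster 15 alone C1qa (0.80), C1qb (0.43), C1qc (0.74) and C3ar1 (0.15), and leaving out cluster 5 C1qa (0.083) and C1qc (0.037). C4b in oligodendrocytes reversed at under 10% mitochondrial UMIs (-0.094) and without cluster 9 (-1.21). The cluster fits were added after seeing the data.

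Deviations of same-numbered libraries from their group means were weakly and negatively correlated over genes (-0.14 in microglia, -0.19 in monocyte-macrophages). With 2 libraries per genotype this cannot show whether same-numbered libraries share a batch or a day. With the replicate block 0 complement genes were called in both classes, and 9 and 0 genes in all; with crossed pairs, 74 and 61. C3 and Cfb in microglia rest on 20 to 181 UMIs per library, which limits their precision.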
